A study of Mus musculus with 9 samples.

Results

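Connexins are the membrane proteins that build gap junctions, and 5 of their genes were followed across imiquimod-treated skin of mice with and without oral vanillin. The genes were Gja1, Gjb1, Gjb2, Gjb5 and Gjb6. They were chosen by name: every array probe whose gene symbol equals one of the 5, in the probe annotation of the platform, was taken. The annotation writes them GJA1, GJB1, GJB2, GJB5 and GJB6. That gave 5 probes, 1 for each gene, of 26423 probes in all, of which 20377 carried a gene symbol. No probe of the 5 was left out by a filter, because none was applied.

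RNA was measured on 9 one-colour arrays, 3 for each of 3 groups of female BALB/c mice. The first group, called vanillin here, had imiquimod (IMQ) put on the skin and 100 mg/kg of vanillin given by mouth. The IMQ group had imiquimod on the shaved back, and the mock group had Vaseline cream there, and treatment ran for 7 days. Imiquimod activates toll-like receptor 7 and is used to raise a psoriasis-like inflammation in mouse skin. Vanillin is the main aroma compound of vanilla. The labels give neither the age of the mice nor an oral vehicle for the groups without vanillin. They do not say whether each array stands for a mouse of its own, so each p-value is set against the spread among arrays, and that spread may be technical. The tissue label names skin and the extraction text names muscle. Markers of both were bright on the arrays, with a median brightness percentile of 95.5 for 7 basal keratinocyte markers and 98.3 for 6 skeletal muscle markers.

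In a gap junction, connexin subunits form a channel through the membrane of one cell that docks with a channel of its neighbour, so that ions and small molecules pass between them. Keratinocytes express several connexins at once, and their pattern shifts between the basal and the upper layers of the epidermis and in hair follicles and sweat glands. In human skin, inherited changes of GJB2 and GJB6 cause thickened palms and soles, hair loss or deafness, and the GJB2 protein is known to be abundant in psoriatic plaques.

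Against the IMQ group, 2 of the 5 connexins were higher with vanillin, Gjb1 at 2.32-fold and Gjb6 at 1.48-fold, beside 24.3% of all probes called higher in that comparison. The Gjb6 call was lost without IMQ replicate 1 or vanillin replicate 2. Against mock, IMQ alone lowered Gjb2, whose intensity was 0.735 times that of mock skin, beside 29.6% of all probes called lower. Gja1 and Gjb5 passed the test in none of the 3 comparisons. Each probe was tested with limma on log2 intensity over all 9 arrays, with Benjamini-Hochberg adjustment over all 26423 probes, and called at an adjusted p under 0.05. The plot of log2 intensities by array shows all 45 values.

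**Figure D1:**
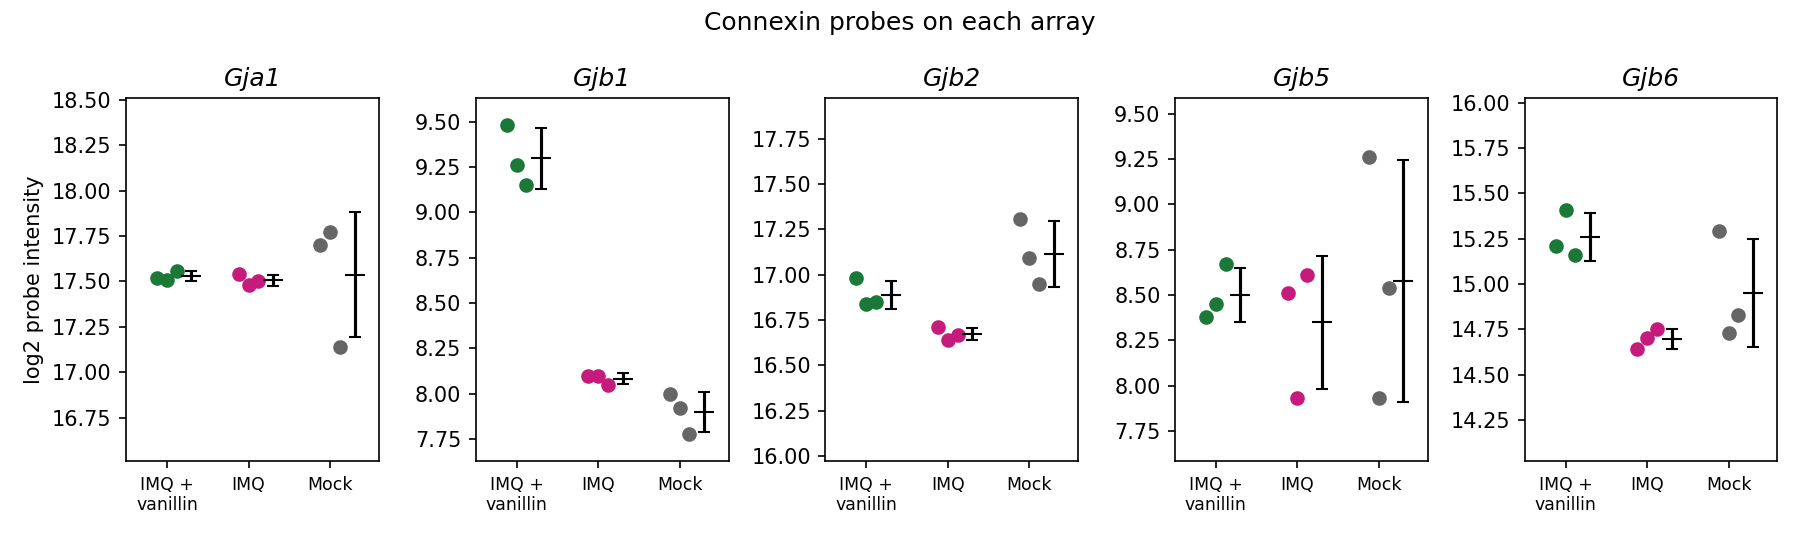
Log2 probe intensity of the 5 connexin probes on each of the 9 arrays, in the vanillin (IMQ + vanillin), IMQ and mock groups. Points are arrays, the bar and whiskers are the mean and SD of 3 arrays, and each panel spans the same height of log2 units at its own level. The 3 vanillin arrays of Gjb1 (9.15 to 9.48) stand above all others, and the mock arrays of Gja1, Gjb5 and Gjb6 are spread widely.

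Gjb1 encodes Cx32, a connexin of liver and of myelinating Schwann cells, and in humans its inherited loss causes a neuropathy. Its log2 intensity was 9.48, 9.26 and 9.15 on the vanillin arrays, 8.10, 8.10 and 8.05 on the IMQ arrays and 8.0, 7.92 and 7.78 on the mock arrays. On the linear scale these were 716, 615 and 566 units with vanillin, 274, 275 and 265 with IMQ and 256, 242 and 220 in mock skin. Every vanillin array lay above every IMQ array, and every IMQ array lay above every mock array. The difference between vanillin and IMQ was 1.21 ± 0.11 log2 units (SE, limma adjusted p = 0.000517), and 2.66% of all probes changed by at least as much in that comparison. Between vanillin and mock it was 1.40 ± 0.11 (SE, limma adjusted p = 3.51e-05), a 2.63-fold difference. Between IMQ and mock it was 0.18 ± 0.11 (95% interval -0.06 to 0.43, limma adjusted p = 0.178), which passed the test only when arrays were weighted by their quality (adjusted p = 0.0136). Both vanillin differences passed under each alternative tried. The probe was dim, with a mean at percentile 39.4 of all probes, a position that describes the probe's brightness and not the amount of transcript. The deposited values carry no detection flag, so how far it stood above background is unknown.

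RefSeq's promoter table (GRCm38.p6) holds 4 windows for Gjb1, each from 250 bases before to 50 bases after an annotated transcript start. The array does not tell which start was used. The letters of 3 motifs were looked for on both strands: the AP-1 motif (TGACTCA or TGAGTCA), the GC box (GGGCGG or CCGCCC) and the TATA motif (TATAAA or TTTATA). Of all 32851 windows, 5.2% held the first, 35.7% the second and 13.6% the third. The window at chrX:101383482-101383781 on the plus strand is shown because it was the only one of the 4 to hold any of them, with 3 GC boxes and a TATA motif that begins 29 bases before the start, all in capitals.
Gjb1: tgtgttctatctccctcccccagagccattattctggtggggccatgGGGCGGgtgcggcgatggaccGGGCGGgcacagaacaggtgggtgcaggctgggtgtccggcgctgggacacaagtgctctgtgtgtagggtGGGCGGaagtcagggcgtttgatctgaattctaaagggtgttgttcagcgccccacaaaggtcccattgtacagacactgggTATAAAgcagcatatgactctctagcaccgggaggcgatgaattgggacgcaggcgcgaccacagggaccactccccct

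Schwann cell markers were set beside Gjb1, since those cells are a known source of Cx32. The list had 4 markers with a probe. With vanillin against IMQ, where 24.3% of all probes were higher and 17% lower, 2 were higher, 1 was lower and 1 was not called. Their summed intensity ran from 17049 to 18624 on the vanillin arrays and from 15980 to 19032 on the IMQ arrays, so the groups overlapped, and it ran from 29748 to 30452 on the mock arrays. No value of the 4 was at 0. Mbp, a myelin protein gene, was higher with vanillin by 0.95 log2 units on its brighter probe and read -0.19 (limma adjusted p = 0.489) on its dimmer one. Mag, another myelin gene, read 10.25, 9.28 and 11.37 on the vanillin arrays and 12.29, 11.17 and 12.57 on the IMQ arrays, and these groups overlapped. Its difference of -1.71 ± 0.52 was called (SE, limma adjusted p = 0.0281), but not without IMQ replicate 1 or 3 or vanillin replicate 1 or 2 (adjusted p up to 0.0988), nor with only the arrays of both groups (adjusted p = 0.0639). In these samples of whole tissue, fewer cells of a type and less RNA per cell cannot be told apart.

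Gjb6 encodes Cx30, a connexin of upper epidermal layers, hair follicles and the inner ear. Its log2 intensity was 15.21, 15.41 and 15.16 on the vanillin arrays, 14.64, 14.70 and 14.75 on the IMQ arrays and 15.29, 14.73 and 14.83 on the mock arrays. All vanillin arrays were above all IMQ arrays, while mock replicate 1 lay among the vanillin arrays and mock replicate 2 among the IMQ arrays. Vanillin differed from IMQ by 0.56 ± 0.15 log2 units (SE, limma adjusted p = 0.0161), and 25.1% of all probes changed by at least as much. That call was lost without IMQ replicate 1 (adjusted p = 0.0578) or vanillin replicate 2 (adjusted p = 0.0551), with differences of 0.54 and 0.49. IMQ differed from mock by -0.25 (95% interval -0.59 to 0.08, limma adjusted p = 0.179). Vanillin differed from mock by 0.31 (95% interval -0.02 to 0.65, limma adjusted p = 0.16). Without mock replicate 1, the vanillin difference from mock was 0.48 and passed the test (adjusted p = 0.00898).

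Gjb2 encodes Cx26, which is low in resting epidermis between hair follicles and known to rise in wounded and proliferating skin. Its log2 intensity was 16.98, 16.84 and 16.85 on the vanillin arrays, 16.71, 16.64 and 16.67 on the IMQ arrays and 17.31, 17.09 and 16.95 on the mock arrays. The probe was among the brightest, mock arrays included, with a mean at percentile 99.7 of all probes. Whether its spots were near saturation is unknown. The IMQ arrays were below all others, and vanillin replicate 1 lay just above mock replicate 3. IMQ differed from mock by -0.45 ± 0.10 log2 units (SE, limma adjusted p = 0.00662), which passed under each alternative tried, and 48.7% of all probes changed by at least as much. Vanillin differed from IMQ by 0.22 (95% interval -0.02 to 0.46, limma adjusted p = 0.126). It passed with array weights (adjusted p = 0.0225) and without mock replicate 1 (adjusted p = 0.0485), an array outside the contrast that bears on the shared spread. Vanillin differed from mock by -0.23 (95% interval -0.47 to 0.01, limma adjusted p = 0.153). The comparisons with IMQ share its arrays, so a low IMQ group by itself gives the changes opposite signs.

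The fall of Gjb2 stood beside rises of activated keratinocyte markers in the same comparison. Of those 4 markers, 3 were higher and 1 was not called for IMQ against mock, and their summed intensity was 705381 to 732599 on IMQ arrays and 395091 to 411422 on mock arrays. Krt6b, a keratin of wounded epidermis, was higher by 7.63 log2 units. Of 7 suprabasal keratinocyte markers 3 were higher, 1 was lower and 3 were not called. They summed to 977573 to 1024141 in IMQ and 635587 to 710120 in mock skin. Of 7 basal keratinocyte markers 2 were higher, 3 were lower and 2 passed in neither direction, with sums of 585358 to 669319 in IMQ and 595579 to 640212 in mock skin, which overlapped. Trp63, 1 of the 2 higher, read 0.42 on its brightest probe. Its other 2 probes read -0.21, not called, and -1.34, called lower. Of 9 hair follicle markers 1 was higher, 5 were lower and 3 passed in neither direction, and they summed to 874171 to 906705 in IMQ and 930576 to 1088690 in mock skin. None of these markers was at 0 on any array, and Krt72 and Krt85 of the follicle list had no probe. Of all probes, 24% were called higher and 29.6% lower in this comparison. The part of these cell types in the Gjb2 result was not tested.

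Gjb2 and Gjb6 are neighbouring genes on mouse chromosome 14, with Gja3 on the other side of Gjb2. Gja3, a connexin known from the lens, has a dim probe at percentile 36 and also fell with IMQ, by 0.59 ± 0.11 on the log2 scale (limma adjusted p = 0.00196). With vanillin against IMQ it read -0.14 (95% interval -0.38 to 0.11), beside 0.22 for Gjb2 and 0.56 for Gjb6. The promoter windows of Gjb2, at chr14:57104653-57104952, and Gjb6, at chr14:57133562-57133861, both on the minus strand, are shown to set these neighbours side by side. The Gjb2 window is 70% G and C and has 2 GC boxes, in capitals. The Gjb6 window is 57.3% G and C and holds none of the 3 motifs, which says only that these letters are not in that window. Over all windows of the table the median was 52.7% G and C.
Gjb2: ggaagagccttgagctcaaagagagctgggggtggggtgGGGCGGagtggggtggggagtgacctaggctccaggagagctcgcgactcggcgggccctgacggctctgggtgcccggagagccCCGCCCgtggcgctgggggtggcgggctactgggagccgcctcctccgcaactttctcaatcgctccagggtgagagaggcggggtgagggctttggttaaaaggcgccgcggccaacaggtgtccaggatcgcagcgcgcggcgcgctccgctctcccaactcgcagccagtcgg
Gjb6: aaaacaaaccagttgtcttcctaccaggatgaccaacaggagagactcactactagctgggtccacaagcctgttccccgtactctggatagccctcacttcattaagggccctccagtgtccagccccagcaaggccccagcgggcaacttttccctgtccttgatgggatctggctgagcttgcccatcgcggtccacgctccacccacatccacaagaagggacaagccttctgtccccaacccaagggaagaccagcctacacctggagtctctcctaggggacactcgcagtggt

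Gja1 encodes Cx43, the most widespread connexin of skin, made by keratinocytes, fibroblasts and vessel cells. Its log2 intensity was 17.52, 17.51 and 17.56 on the vanillin arrays, 17.54, 17.48 and 17.50 on the IMQ arrays and 17.70, 17.77 and 17.14 on the mock arrays. The SD was 0.02 in vanillin, 0.03 in IMQ and 0.34 in mock skin, and the mock arrays lay on both sides of all the others. Vanillin differed from IMQ by 0.02 (95% interval -0.32 to 0.37, limma adjusted p = 0.911) and from mock by -0.01 (95% interval -0.36 to 0.34, limma adjusted p = 0.976). The interval against IMQ includes the wide mock spread through the shared fit, with an SE of 0.15. That SE was 0.06 with only the vanillin and IMQ arrays fitted. IMQ differed from mock by -0.03 (95% interval -0.38 to 0.31, limma adjusted p = 0.872). That last value rests on the mock arrays: it was -0.23 and just called without mock replicate 3 (adjusted p = 0.049), and 0.08 (adjusted p = 0.682) without mock replicate 2. The probe was among the brightest, at percentile 99.9, and the files do not show whether its spots were near saturation.

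The Gja1 window, at chr10:56377050-56377349 on the plus strand, is shown because it was the only member window with an AP-1 motif, in capitals, which begins 19 bases before the start.
Gja1: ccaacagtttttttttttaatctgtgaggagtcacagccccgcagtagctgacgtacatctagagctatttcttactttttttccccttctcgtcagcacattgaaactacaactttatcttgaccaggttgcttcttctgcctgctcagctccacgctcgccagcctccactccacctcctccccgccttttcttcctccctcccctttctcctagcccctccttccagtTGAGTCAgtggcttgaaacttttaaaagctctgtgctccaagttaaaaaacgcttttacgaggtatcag

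Gjb5 encodes Cx31.1, a connexin of the epidermis. Its log2 intensity was 8.38, 8.45 and 8.67 on the vanillin arrays, 8.51, 7.93 and 8.61 on the IMQ arrays and 9.26, 7.93 and 8.54 on the mock arrays. The groups overlapped in every comparison, and the mock SD of 0.66 was the largest of any member in any group. Vanillin differed from IMQ by 0.15 (95% interval -0.56 to 0.86) and from mock by -0.08 (95% interval -0.78 to 0.63). IMQ differed from mock by -0.22 (95% interval -0.93 to 0.48). The limma adjusted p was 0.727, 0.885 and 0.571 in that order. This probe too was dim, at percentile 40.

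**Figure D2:**
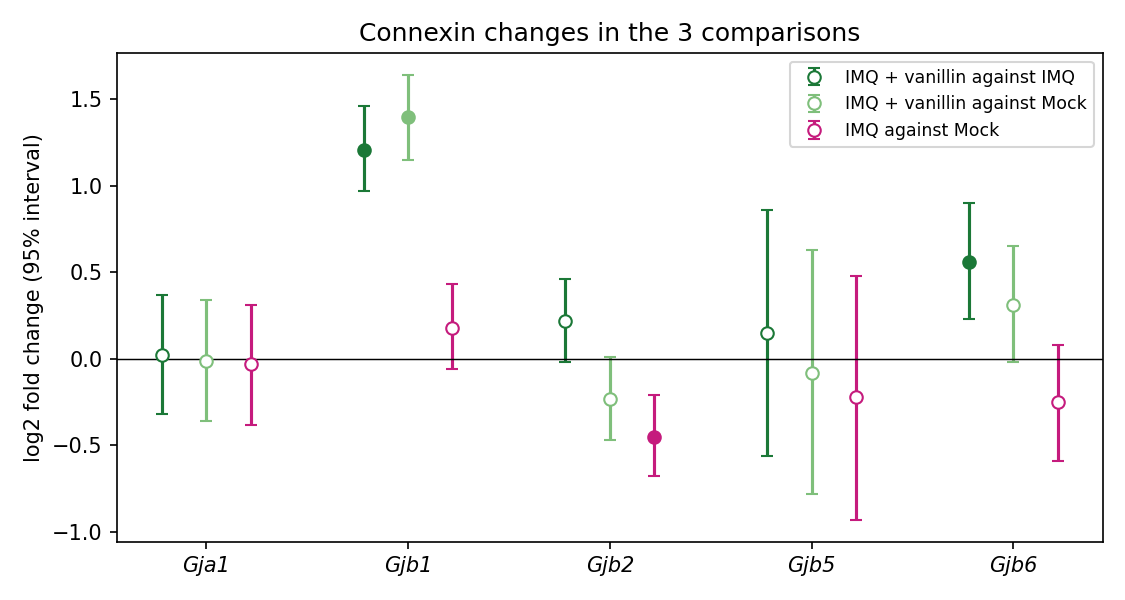
Log2 fold change of each connexin in the comparisons of vanillin (IMQ + vanillin) with IMQ, of vanillin with mock and of IMQ with mock, with the 95% interval from limma. Filled points passed an adjusted p of 0.05. Gjb1 is at 1.21 and 1.40 in the comparisons with vanillin, Gjb6 at 0.56 against IMQ and Gjb2 at -0.45 for IMQ against mock.

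Counted together, the members were called no more often than other probes. With vanillin against IMQ, 2 of 5 were higher and 0 lower, beside 41.2% of all probes called, 24.3% higher and 17% lower. The groups did not overlap for 3 of 5, beside 58.5% of all probes. For vanillin against mock, 1 of 5 was higher and 0 lower, beside 26.7% called, 11.9% higher and 14.7% lower, with 1 of 5 not overlapping beside 37.8%. For IMQ against mock, 1 of 5 was lower and 0 higher, beside 53.6% called, 29.6% lower and 24% higher, with 2 of 5 not overlapping beside 68%. The median change of the 5 was 0.22, -0.01 and -0.22 log2 units in these comparisons, beside 0.03, 0.01 and -0.04 over all probes. In 4 of the 5 genes the SD was largest in the mock group, and in Gjb1 it was largest in the vanillin group. Over all probes the median SD was 0.17 in vanillin, 0.0792 in IMQ and 0.158 in mock skin.

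Besides the members, 11 other connexin genes had a probe. With vanillin against IMQ, where 24.3% of all probes were called higher and 17% lower, 0 of the 11 were higher and 2 were lower. Those were Gjc3, a connexin of myelinating glia, at -0.82 ± 0.20 (SE, limma adjusted p = 0.0135) and Gja5, a connexin of arterial endothelium and heart, at -0.71 ± 0.14 (SE, limma adjusted p = 0.00575). Gjc3 read 8.32, 8.38 and 9.17 on the vanillin arrays, 9.44, 9.34 and 9.56 on the IMQ arrays and 8.29, 8.27 and 8.23 on the mock arrays. Vanillin replicate 3 thus stood near the IMQ arrays and the other vanillin replicates near mock. Without IMQ replicate 3, Gjc3 was no longer called (adjusted p = 0.0521). Gja5 read 10.08, 9.84 and 10.44 with vanillin, 10.91, 10.74 and 10.84 with IMQ and 10.33, 10.31 and 10.42 in mock skin, so that the IMQ arrays were the highest. The 9 not called ran from -0.36 for Gjd3 to 0.71 for Gje1, whose interval of -0.44 to 1.87 was the widest.

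For IMQ against mock, where 24% of all probes were called higher and 29.6% lower, 4 of the 11 other connexins were higher and 3 lower. The rises were those of Gjc3 at 1.18 ± 0.20, Gjd3 at 0.62 ± 0.13, Gja10 at 0.54 ± 0.11 and Gja5 at 0.48 ± 0.14 log2 units (SE). The call of Gja5 was lost without mock replicate 1 or 2 or IMQ replicate 1 or 3, with an adjusted p of up to 0.0693. The falls were those of Gjc1, a connexin of heart and vascular smooth muscle, at -1.15 ± 0.15, Gja3 at -0.59 ± 0.11 and Gja4, a connexin of endothelium, at -0.52 ± 0.12. Gja6, Gjd2, Gjd4 and Gje1 were not called, with changes of -0.27, 0.50, 0.29 and -0.14. Against mock, vanillin left 1 of the 11 higher, Gja10 at 0.45 ± 0.11, and 2 lower, Gjc1 at -0.77 ± 0.15 and Gja3 at -0.72 ± 0.11. Of all probes, 11.9% were called higher and 14.7% lower there. Gja10 was not called there when only the arrays of both groups were fitted (adjusted p = 0.0523). Most of these probes were dim, with a median percentile of 36, and some of their symbols have changed owners, since Gjc1 is an older name of Gjd3 and Gje1 one of Gjc3.

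Endothelial markers fell beside the endothelial Gja4. Of 5 such markers, 0 were higher, 4 lower and 1 not called for IMQ against mock, and their summed intensity was 9040 to 9270 in IMQ and 15265 to 15663 in mock skin, with none at 0. The marker not called was Pecam1, at -0.28 on its brightest probe. Its other 2 probes were called lower, at -1.73 and -1.21. Gja5, also of endothelium, was higher in that comparison. The smooth muscle list, set beside Gjc1, had 4 members with a probe and none for Myh11, and 1 was higher and 2 were lower. It summed to 55484 to 60678 in IMQ and 65957 to 89939 in mock skin. Of all probes, 24% were called higher and 29.6% lower in this comparison. The part of these cells in the changes was not tested.

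**Figure D3:**
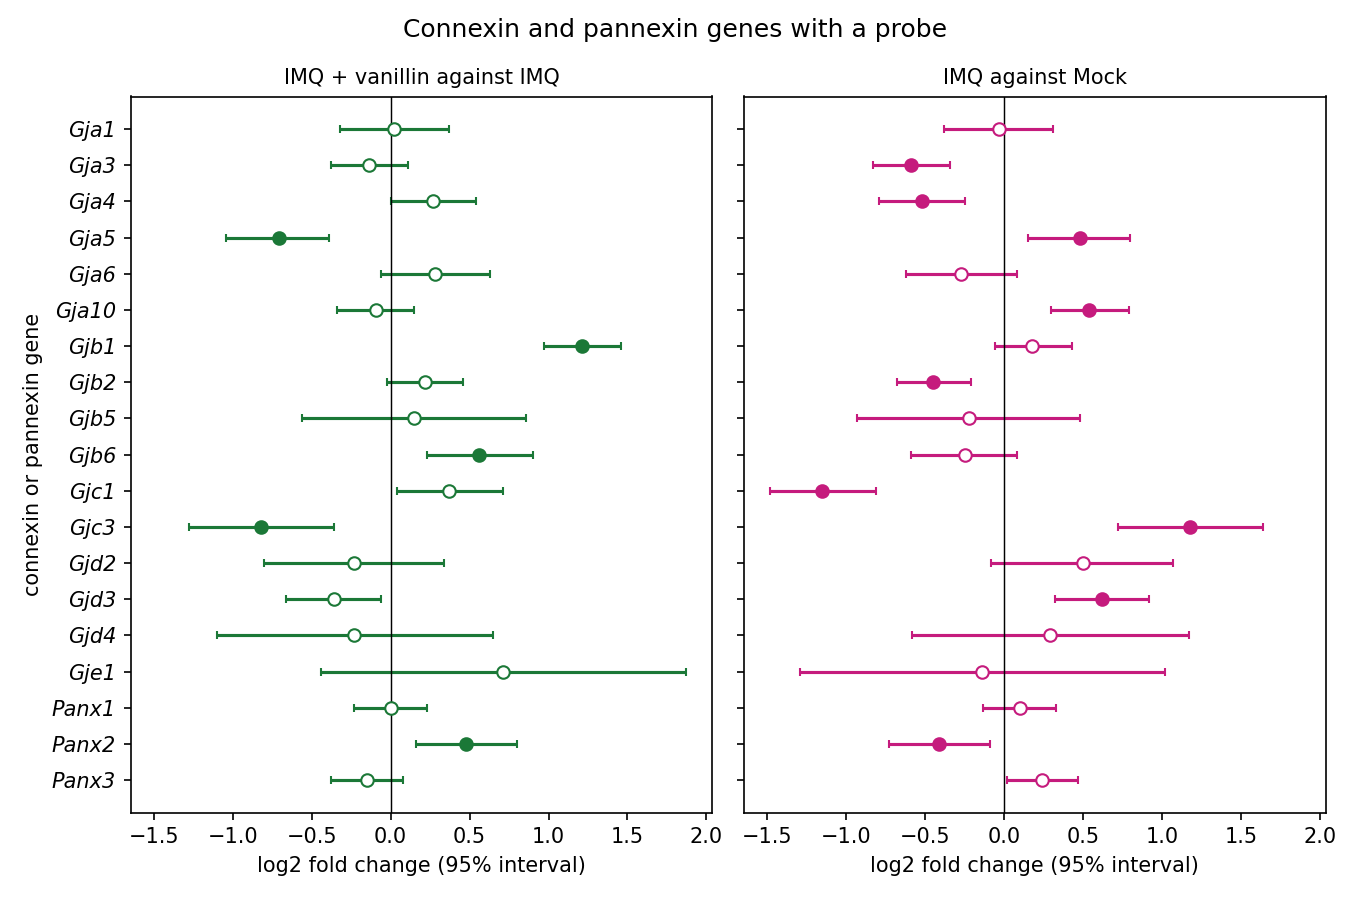
Log2 fold change with the 95% interval from limma for the 16 connexin and 3 pannexin genes that had a probe, for vanillin (IMQ + vanillin) against IMQ and for IMQ against mock. Filled points passed an adjusted p of 0.05. Gjb1 and Gjb6 are the only connexins called higher with vanillin against IMQ, and for IMQ against mock 4 connexins are filled on each side of 0.

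Pannexins form channels related in shape to connexin channels, which release ATP to the outside of the cell. Panx2 was higher with vanillin than with IMQ, by 0.48 ± 0.14 (SE, limma adjusted p = 0.0262), and lower with IMQ than in mock skin, at -0.41 ± 0.14 (SE, limma adjusted p = 0.0363). Its probe was dim, at percentile 17.9, and the IMQ and mock arrays overlapped. The call against IMQ was lost without IMQ replicate 1 or 3 or vanillin replicate 1 or 2 (adjusted p up to 0.0994). The call against mock was lost without mock replicate 2 or 3 or IMQ replicate 1 or 3 (adjusted p up to 0.136). Panx1, the main pannexin of keratinocytes, read 0.00 (95% interval -0.23 to 0.23) with vanillin against IMQ and 0.10 (95% interval -0.13 to 0.33) with IMQ against mock. Panx3 read -0.15 and 0.24 and was not called.

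Among 7 measured genes whose proteins bind, move or remove connexins, Tjp1 changed in both comparisons with IMQ. It encodes the scaffold protein ZO-1, which binds the tail of Cx43. It read 12.90, 13.05 and 12.90 on the vanillin arrays, 12.63, 12.49 and 12.53 on the IMQ arrays and 13.09, 12.89 and 12.82 on the mock arrays. The difference was 0.40 ± 0.10 for vanillin against IMQ (SE, limma adjusted p = 0.0131) and -0.38 ± 0.10 for IMQ against mock (SE, limma adjusted p = 0.0105). For vanillin against IMQ it was the only 1 of the 7 called, beside 41.2% of all probes. It was not called without IMQ replicate 3 (adjusted p = 0.0519). Ubqln4, which escorts Cx43 to degradation, and the kinase Src read -0.24 and 0.16 there. For IMQ against mock 1 was higher and 3 lower, beside 24% and 29.6% of all probes. Nedd4, a ubiquitin ligase that acts on Cx43, was at -1.19 ± 0.12 (SE, limma adjusted p = 6.72e-05), Src at -0.30 ± 0.08 and Ubqln4 at 0.26. Ubqln4 lost its call without mock replicate 1 or 3 or IMQ replicate 1 or 3 (adjusted p up to 0.122). For vanillin against mock 1 was higher and 1 lower, beside 11.9% and 14.7% of all probes, and Nedd4 was at -1.03 ± 0.12.

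The other junctions of the epidermis were described by lists as well. The shares to set beside all their counts were 24.3% of probes higher and 17% lower with vanillin against IMQ. With IMQ against mock they were 24% and 29.6%. Of 12 tight junction genes, 6 were higher and 2 lower with vanillin against IMQ (median change 0.25). Cldn12 was at -1.65 ± 0.20, Cldn1, the main barrier claudin of epidermis, at 0.77 ± 0.11 and Cldn8 at 0.99 ± 0.17. For IMQ against mock 2 were higher and 9 lower (median change -0.91), with Cldn3 at -1.48 ± 0.09, Cldn8 at -1.88 ± 0.17 and the scaffold gene Tjp3 at 1.18 ± 0.11. Cldn1 was at -0.92 ± 0.11 and Cldn12 at 1.98 ± 0.20 in that comparison. Markers of other tissues moved beside this list. Of 6 skeletal muscle markers 5 were higher with vanillin against IMQ and 5 lower with IMQ against mock, and they summed to 243994 to 268058 in vanillin, 209569 to 213176 in IMQ and 249241 to 289019 in mock skin. Of 5 adipocyte markers 4 were higher and 1 lower with vanillin against IMQ and 4 were lower with IMQ against mock. They summed to 140383 to 154907 in vanillin, 150904 to 154447 in IMQ and 188968 to 215799 in mock skin. No marker of either list was at 0, and their part in the junction changes was not tested.

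Of 11 desmosome genes, 4 were higher and 2 lower with vanillin against IMQ (median change -0.05). Dsc3, a desmosomal cadherin, was at 0.56 ± 0.09, and the plakophilins Pkp3 and Pkp1 were at -0.59 ± 0.13 and 0.35 ± 0.09. Pkp1 was not called without IMQ replicate 1 (adjusted p = 0.0557). For IMQ against mock 4 were higher and 5 lower (median change -0.17), with the cadherin Dsc2 at -1.62 ± 0.10, the cadherin Dsg1a at 1.05 ± 0.14 and Perp at 0.66 ± 0.09. Of 10 adherens junction genes, 1 was higher and 3 were lower with vanillin against IMQ (median change 0.03). E-cadherin, Cdh1, was at -1.22 ± 0.17, vinculin, Vcl, at -0.78 ± 0.16 and Nectin2 at -0.27 ± 0.08. The call of Nectin2 was lost without any 1 of the 3 IMQ arrays or without vanillin replicate 1 or 2 (adjusted p up to 0.0828). The 1 higher gene was Cdh3 at 0.57 ± 0.17, which lost its call when any of these 5 arrays was left out (adjusted p up to 0.0837) and with the mean of its probes (adjusted p = 0.0504). Its other 2 probes read 0.48, called higher, and -0.23, not called, in this comparison. For IMQ against mock 4 were higher and 3 lower (median change 0.22), with Cdh1 at 1.43 ± 0.17, beta-catenin, Ctnnb1, at -0.63 ± 0.09 and P-cadherin, Cdh3, at -1.06 ± 0.17. The other 2 probes of Cdh3 read -0.21 and -0.23 and were not called. For vanillin against mock, 11.9% of all probes were called higher and 14.7% lower. The adherens junction list gave 2 higher and 1 lower there, the tight junction list 1 higher and 7 lower and the desmosome list 5 higher and 4 lower. Dsc3, 1 of those 5, was at 0.31 ± 0.09 on its brighter probe and was called lower on its dimmer one, at -1.03 ± 0.13, so that its direction there depends on the probe. The call on the brighter probe was lost without mock replicate 2 or 3, any 1 IMQ array or vanillin replicate 1 or 2 (adjusted p up to 0.0842), with only the arrays of both groups (adjusted p = 0.109) and with the replicate block (adjusted p = 0.0568).

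**Figure D4:**
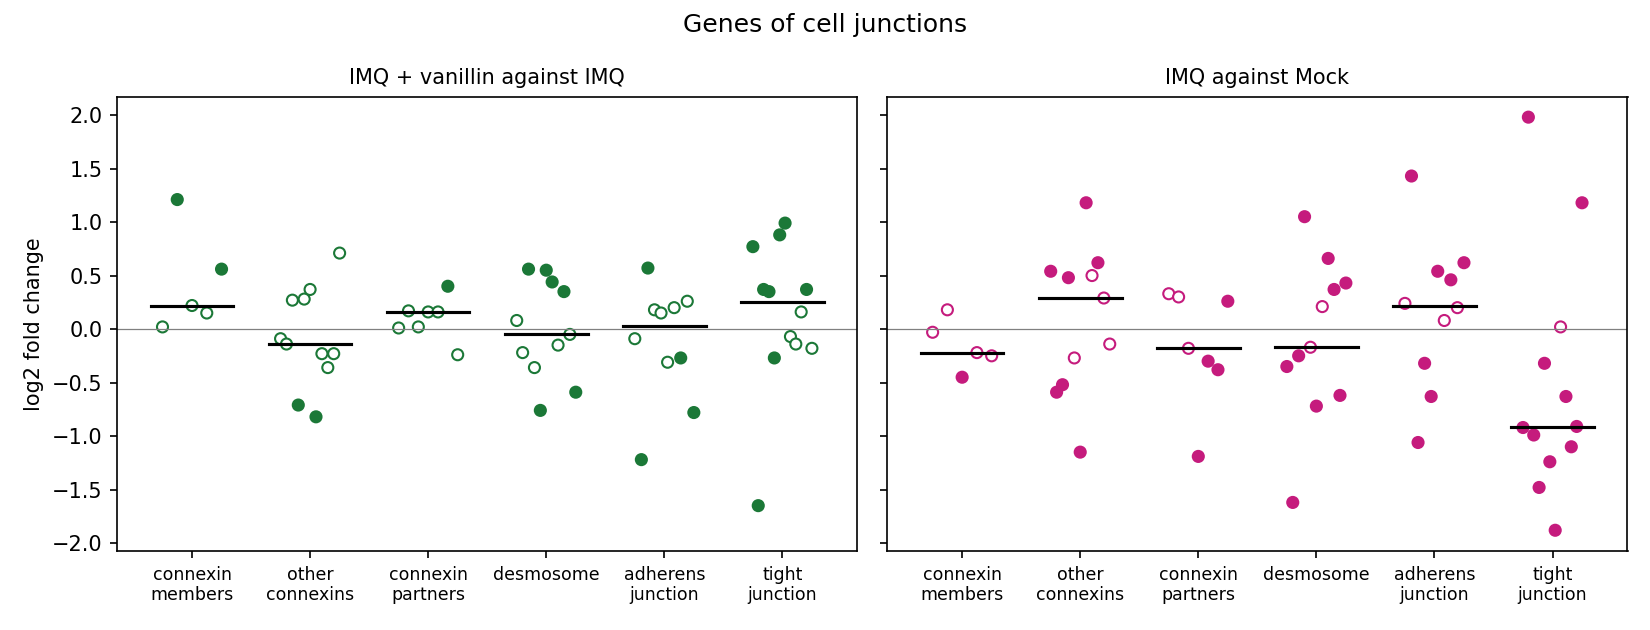
Log2 fold change of each gene in the connexin members, the other connexins, the connexin partners and 3 other junction lists, for vanillin (IMQ + vanillin) against IMQ and for IMQ against mock. Points are genes, filled where called at an adjusted p of 0.05, and the bar is the median of the list. The tight junction median is at 0.25 for vanillin against IMQ and at -0.91 for IMQ against mock, while the connexin members are at 0.22 and -0.22.

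The genes whose profiles were most like each connexin were found among 10349 named genes of at least median brightness, by the root mean square difference of log2 values centred on each gene's mean over the 9 arrays. For Gjb1, whose values spanned 1.70 log2 units, they were Cd14, a co-receptor for bacterial lipopolysaccharide, at 0.13, the kinase gene Alpk3 at 0.14 and Dusp1, a phosphatase of MAP kinases, at 0.16. Cd14 had means of 11.90 in vanillin, 10.96 in IMQ and 10.73 in mock skin. For Gjb2, which spanned 0.67 units, they were Dis3l2 at 0.04, Garre1 at 0.05 and Snai2, a transcription factor of the Snail family, at 0.06. For Gjb6, with a span of 0.77, they were the histone acetyltransferase gene Hat1 at 0.06, Ggnbp2 at 0.06 and the coatomer gene Copb2 at 0.07. The nearest for Gja1 were Mrps22, Ascc3 and Carnmt1 at 0.11 to 0.12 of a span of 0.63. For Gjb5 they were Abca4, Scd1 and Prickle2 at 0.23 to 0.24 of a span of 1.33, the largest distances of the 5. All profiles share the same 9 arrays, and the values describe likeness with no test.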

How the data were processed

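Cy5-labelled RNA was read on one-colour arrays, per the labels' protocols. The authors deposited linear probe intensity for 26423 probes. limma is named in the submitters' processing notes, while scanner, background step and filters are not stated there. Column medians of 629 to 631 show that the arrays had been equalised, so a change of total signal cannot be seen.

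Values under 1 were set to 1 and log2 was taken, without further normalization or filter. limma 3.58.1 (R 4.3.3) was fitted over all 9 arrays with a mean for each group and default empirical Bayes, and the script was tested on simulated data. The number of arrays limits precision. Gene names came from the platform's annotation, updated through RefSeq (GRCm38.p6, for names and promoters only), and the brightest probe stood for a gene. Named were all connexins and pannexins. From each other partner or junction list came the 3 genes with the smallest p, for vanillin against IMQ and for IMQ against mock. Cldn1, Cldn12, Tjp1, Nedd4, Ubqln4, Cdh3 and Dsc3 were also followed into other comparisons after their values were seen. Members and lists were chosen with earlier results of these data known. The closing section gives the alternatives in normalization, dim probe filter, offset, prior, weights, fit, replicate block, threshold and probe summary, and with each array left out. For named genes outside the members, these alternatives were added after seeing the data.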

Additional observations from a re-analysis of the deposited data

How the results depend on the processing

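The number of connexins called was 2 for vanillin against IMQ, 1 for vanillin against mock and 1 for IMQ against mock. With array weights it was 3 for vanillin against IMQ, 2 for vanillin against mock and 2 for IMQ against mock, and at a threshold of 0.01 it was 1 for vanillin against IMQ. With 1 array left out it ran from 1 to 3 for vanillin against IMQ and from 1 to 2 in both other comparisons. Without IMQ replicate 1 or vanillin replicate 2, Gjb6 was no longer called against IMQ. Without mock replicate 1, Gjb2 was called for vanillin against IMQ and Gjb6 for vanillin against mock, and without mock replicate 3, Gja1 was called for IMQ against mock. Of all probes, 10898 were called for vanillin against IMQ and 5457 at a threshold of 0.01. With 1 array left out that count ran from 6576, without IMQ replicate 3, to 12805, and was 6923 without IMQ replicate 1. For vanillin against mock 7045 were called and 4231 at a threshold of 0.01, and 5507 to 7767 with 1 array left out. For IMQ against mock 14157 were called, and 11551 to 15901 with 1 array left out. Array weights raised the calls among all probes too. They gave 16208 for vanillin against IMQ, 10260 for vanillin against mock and 19830 for IMQ against mock. Of 285 values for single members under alternatives, 264 kept their direction and side of the threshold.

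Among the members, signs changed only for Gja1 and Gjb5, none of them called. With array weights Gjb5 read -0.04 for vanillin against IMQ, 0.35 for vanillin against mock and 0.40 for IMQ against mock, and Gja1 read -0.01 for vanillin against IMQ. Without mock replicate 1, Gjb5 read 0.26 for vanillin against mock and 0.12 for IMQ against mock, and Gja1 read 0.07 and 0.05. Without mock replicate 2, Gja1 read 0.11 and 0.08 in these comparisons. Gjb5 read -0.06 for vanillin against IMQ without IMQ replicate 2, and Gja1 read 0.00 for vanillin against mock without vanillin replicate 2. With 1 array left out, Gja1 was as low as -0.21 for vanillin against mock and -0.23 for IMQ against mock, and Gjb5 was as high as 0.28 for vanillin against IMQ and as low as -0.40 against mock and -0.55 for IMQ against mock. The cause was not tested.

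The same alternatives, added after seeing the data, were run on 62 calls of named connexin, pannexin, partner and junction genes outside the members and of the markers Mbp, Mag and Krt6b. Of these 14 were lost with 1 array left out and 17 under any alternative. Of 1173 values 1093 kept their direction and side of the threshold and 1 was reversed: Dsc3 for vanillin against mock read 0.31 on its brighter probe and -0.36 with the mean of its probes.

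The replicate numbers did not pair the arrays: deviations of same-numbered arrays from their group means correlated at -0.265 to 0.222, and 1 of 9 arrays was closest to an array of its own number. With the replicate number as a block, 2, 1 and 1 connexins were called in the same order of comparisons.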
